A study of Homo sapiens with 10 samples.

Results

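The genes described here are 48 target genes of androgen signaling, taken by symbol from a list of genes known to be regulated by androgen, out of the 31015 genes that the data cover. The list was not computed from values measured here, but its members were chosen with earlier results of these data known. All samples were cells of the 22RV1 line, which was established from a castration-resistant prostate cancer. The cells were untreated (control) or exposed for 4 h to 20 μM SRPIN340, to 50 μM Endovion, to 150 nM THZ531, or to THZ531 and Endovion together, with 2 libraries in each of the 5 groups. SRPIN340 and Endovion are used as inhibitors of SRPK1, a kinase of splicing factors, and THZ531 inhibits CDK12, a kinase of elongating RNA polymerase II. The dose of THZ531 is that of the labels, and the study's methods give another one. The labels name no vehicle for the control cells and give them no time. No group received androgen or an antiandrogen, so a change in a gene below is a change with the compound, and its dependence on androgen signaling was not tested. RNA was labeled with 4-thiouridine shortly before harvest, and reads that carry T>C conversions stand for newly made (nascent) RNA, while all reads of a gene together measure its total RNA. In these bulk samples, fewer cells that express a gene and less RNA of it per cell cannot be told apart.

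Androgens control transcription in the prostate through androgen response elements in promoters and enhancers, often beside binding sites of the factors FOXA1 and HOXB13. An androgen response element is a pair of hexamer half-sites, the second reversed, with a short spacer between them. In luminal prostate cells androgen induces secreted proteases, membrane proteins, lipid and polyamine metabolism and feedback regulators of its own signaling. Prostate-specific antigen, the clinical blood marker of the tissue, is the product of one such gene, KLK3.

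The libraries held 35517462 to 53592904 mapped reads, and 5.04% to 5.70% of the reads on genes had a conversion. Luminal markers were present in every library, with 871 to 3102 reads of HOXB13. KRT5, COL1A2, CD3E and VWF, which mark basal, stromal, T and endothelial cells, had 0 reads. The 5 blood and endothelial markers summed to at most 0.965 RPM (reads scaled to the library's total) in any library, and the 5 stromal ones to 2.54 to 4.69. All 5 neuroendocrine markers had reads, and they summed to 22.7 to 27.0 RPM, against 1596 to 1946 for the 9 luminal ones. The labels do not say whether the 2 libraries of a group came from separate cultures, so p-values measure the spread between these libraries, which may be technical. All 4 treatments are set against the same 2 control libraries, and their values are therefore not independent of each other.

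Promoter sequences are shown for 5 members, the kallikreins KLK3 and KLK2, whose control by androgen is best known, and PMEPA1, SLC45A3 and C1orf116, whose nascent RNA moved most clearly in the comparisons below. Each is the 250 bases before the start that RefSeq gives in GRCh38.p14, written 5′ to 3′ on the strand of the gene. They lie at chr19:50854665-50854914 on the plus strand (KLK3), chr19:50873189-50873438 on the plus strand (KLK2), chr20:57710578-57710827 on the minus strand (PMEPA1, the one of its 4 RefSeq starts with the closest match), chr1:205680510-205680759 on the minus strand (SLC45A3) and chr1:207032757-207033006 on the minus strand (C1orf116). Capitals mark the stretch closest to the full element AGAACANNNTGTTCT where it has at most 3 mismatches in the 12 letters compared.
KLK3: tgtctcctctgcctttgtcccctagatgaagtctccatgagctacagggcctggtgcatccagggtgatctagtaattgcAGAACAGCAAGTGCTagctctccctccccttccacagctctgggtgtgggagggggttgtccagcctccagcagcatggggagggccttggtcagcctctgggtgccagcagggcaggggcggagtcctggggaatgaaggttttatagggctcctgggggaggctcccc
KLK2: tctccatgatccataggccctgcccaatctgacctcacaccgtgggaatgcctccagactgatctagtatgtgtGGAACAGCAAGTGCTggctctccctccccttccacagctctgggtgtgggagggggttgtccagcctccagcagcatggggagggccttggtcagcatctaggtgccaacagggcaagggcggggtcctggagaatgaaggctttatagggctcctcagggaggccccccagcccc
PMEPA1: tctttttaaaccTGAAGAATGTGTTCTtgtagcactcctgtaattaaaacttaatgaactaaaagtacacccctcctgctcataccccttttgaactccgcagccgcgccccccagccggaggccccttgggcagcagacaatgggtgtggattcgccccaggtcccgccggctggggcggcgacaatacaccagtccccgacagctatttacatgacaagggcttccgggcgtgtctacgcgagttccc
SLC45A3: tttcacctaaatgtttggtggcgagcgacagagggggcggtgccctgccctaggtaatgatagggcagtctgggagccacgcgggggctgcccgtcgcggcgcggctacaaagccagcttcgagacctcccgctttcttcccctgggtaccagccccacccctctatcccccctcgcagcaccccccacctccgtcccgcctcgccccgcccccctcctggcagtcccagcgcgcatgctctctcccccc
C1orf116: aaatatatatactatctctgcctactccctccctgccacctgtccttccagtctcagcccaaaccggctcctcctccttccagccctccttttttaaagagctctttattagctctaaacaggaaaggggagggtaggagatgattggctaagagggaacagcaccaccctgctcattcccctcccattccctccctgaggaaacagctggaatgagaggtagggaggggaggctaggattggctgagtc

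In KLK3 the marked stretch reads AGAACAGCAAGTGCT, lies 170 to 156 bases before the start and has 2 mismatches. KLK2 carries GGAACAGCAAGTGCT at 176 to 162 bases before its start, with 3 mismatches, and the windows of the 2 neighbouring kallikrein genes share a run of 80 identical bases. The stretch in PMEPA1, TGAAGAATGTGTTCT, also has 2 mismatches. SLC45A3 and C1orf116 had no stretch within 3 mismatches in these windows. RefSeq windows were found for 36 of the 48 members, 65 windows in all. A stretch within 2 mismatches was in 2 of the 65 (3.08%) against 1.18% of all 35116 windows, and one within 3 mismatches in 6 of the 65 (9.23%) against 9.17%. The half-site AGAACA, on either strand, was in 3 of the 65 windows (4.62%), those of KLK3, PMEPA1 and TSC22D1, and in 12.4% of all windows. These letters are a description of the windows, and much of the control by androgen is known to run through enhancers outside them.

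For nascent RNA the T>C reads of each gene entered a quasi-likelihood fit in edgeR, and a gene was called as changed at a Benjamini-Hochberg adjusted p under 0.05 over all 9946 genes that passed the low-count filter. Fold changes are on the log2 scale and against control unless another group is named, and ± is the SE of the fit. Of the 48 members, 41 passed. The 7 below it were KLK3, TMPRSS2, STEAP4, B2M, MAF, MAK and MPPED2, each with at most 12 T>C reads in any library. In nascent RNA, 8 members were called in at least 1 of the 4 comparisons with control: SLC45A3, PMEPA1, KRT19, C1orf116, APPBP2, KLK4 and TSC22D1 fell, and NCAPD3 rose. The other 33 tested members, FKBP5, STEAP2 and NDRG1 among them, were called in none.

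SRPIN340 lowered 1 of the 41 members (2.44%), where 0.191% of all genes tested were called lower, and raised 0, where 0.845% of all genes were called higher. Endovion lowered 3 (7.32%, against 0.623% of all genes) and raised 0 (against 2.04%). THZ531 lowered 4 (9.76%, against 3.60%) and raised 0 (against 3.86%). With THZ531 and Endovion together 5 members were lower (12.2%, against 3.49%) and 1 was higher (2.44%, against 4.61%). At an unadjusted p under 0.05, edgeR had 2, 2 and 5 members higher and 4, 8 and 6 lower with SRPIN340, Endovion and THZ531. Of all genes 10.4%, 14.1% and 21.2% had such a p in either direction. DESeq2 called 0 members higher in each of these comparisons. The median log2 fold change of the 41 members was -0.06, -0.08, 0.06 and -0.09 in the order above, and that of all genes tested was between -0.02 and -0.01. Members below 0 numbered 22, 23, 18 and 23 of 41, and 51.0%, 51.1%, 51.0% and 50.4% of all genes tested were below 0.

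**Figure D1:**
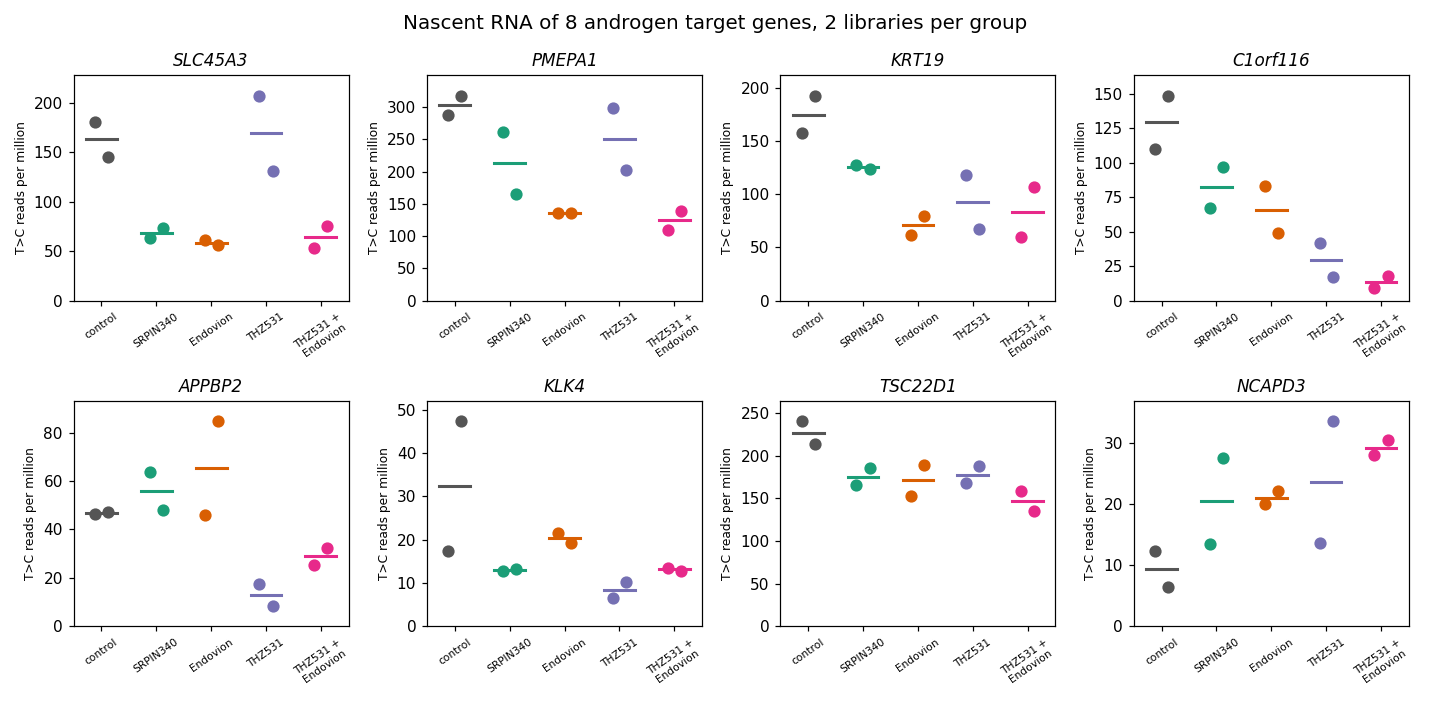
T>C RPM (vertical axis, from 0) of the 8 members called in nascent RNA, by group (horizontal axis), where each point is a library and each line the mean of 2 libraries. SLC45A3 stood at 207 and 131 with THZ531 (control 180 and 145) and at 53.4 to 75.7 in the 6 libraries that received SRPIN340 or Endovion.

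SLC45A3, also called prostein, is a membrane transporter found almost exclusively in prostate epithelium. Its nascent RNA was 180 and 145 RPM (T>C reads relative to all T>C reads of the library, in the unit of the plot by group) in the 2 control libraries, 63.6 and 73.2 with SRPIN340, 61.4 and 55.8 with Endovion, 207 and 131 with THZ531 and 53.4 and 75.7 with THZ531 and Endovion. All 6 libraries that received SRPIN340 or Endovion were below all 4 that did not. The log2 fold change against control was -1.25 ± 0.24 (SE), adjusted p = 0.0012, with SRPIN340, -1.47 ± 0.25 (SE), adjusted p = 7.9e-05, with Endovion and -1.34 ± 0.25 (SE), adjusted p = 1.5e-04, with both compounds. With THZ531 alone it was 0.06 ± 0.23 (adjusted p = 0.93). Adding Endovion to THZ531 lowered SLC45A3 by 1.41 on the log2 scale against THZ531 alone (log2 -1.41 ± 0.25, adjusted p = 0.001), while Endovion and SRPIN340 differed by -0.22 ± 0.26 (adjusted p = 1). The SRPIN340 call was lost without either of the 2 SRPIN340 libraries (adjusted p = 0.052 and 0.055), and the difference between THZ531 with and without Endovion was lost without THZ531 replicate 1 or THZ531 and Endovion replicate 1 (adjusted p = 0.25 and 0.26).

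ELK4, an ETS transcription factor, is also a member and lies 25.8 kb from SLC45A3 on chromosome 1. The pair is known for a transcript that reads through from SLC45A3 into ELK4 in prostate cancer. Nascent ELK4 was 45.1 and 29.7 T>C RPM in control, 50.1 and 65.7 with SRPIN340 and 54.5 and 44.2 with Endovion. Its log2 fold change of 0.62 ± 0.33 with SRPIN340 (adjusted p = 0.51) and of 0.39 ± 0.34 with Endovion (adjusted p = 0.66) did not pass the test. No member shared a counted interval with another gene.

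PMEPA1 encodes a membrane protein that dampens TGF-β signaling. It had 288 and 318 T>C RPM in control, 262 and 165 with SRPIN340, 135 and 136 with Endovion, 298 and 202 with THZ531 and 110 and 140 with both compounds. The 4 libraries with Endovion were below all 6 without it. PMEPA1 fell by 1.16 on the log2 scale with Endovion (log2 -1.16 ± 0.20, adjusted p = 1.4e-04) and by 1.28 with THZ531 and Endovion (log2 -1.28 ± 0.21, adjusted p = 1.2e-05). It was also lower with both compounds than with THZ531 alone (log2 -1.02 ± 0.21, adjusted p = 0.0065), a call lost without THZ531 replicate 1 or THZ531 and Endovion replicate 1 (adjusted p = 0.49 and 0.53). The values against control were -0.51 ± 0.20 (adjusted p = 0.27) with SRPIN340 and -0.26 ± 0.20 (adjusted p = 0.48) with THZ531. Endovion against SRPIN340 gave -0.65 ± 0.20 (adjusted p = 0.99).

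KRT19 encodes an acidic keratin of simple epithelia, and KRT8 and KRT18 encode the keratin pair that fills luminal cells. Nascent KRT19 was 157 and 193 T>C RPM in control, 127 and 123 with SRPIN340, 61.4 and 79.8 with Endovion, 118 and 67.1 with THZ531 and 59.3 and 107 with both compounds. Every treated library was below both control libraries. The log2 fold change was -1.31 ± 0.26 (SE), adjusted p = 6.5e-04, with Endovion, -0.89 ± 0.25 (SE), adjusted p = 0.017, with THZ531 and -1.08 ± 0.25 (SE), adjusted p = 0.0034, with both, and -0.48 ± 0.24 (adjusted p = 0.49) with SRPIN340. These calls were lost without control replicate 2 in all 3 comparisons, and also without Endovion replicate 1 in the first, THZ531 replicate 2 in the second and THZ531 and Endovion replicate 1 in the third. The adjusted p then reached at most 0.095, 0.37 and 0.23, and DESeq2 did not call KRT19 with THZ531. KRT8 and KRT18 were called in none of the 4 comparisons, and their log2 fold changes lay between -0.08 and 0.48 for KRT8 and between -0.07 and 0.04 for KRT18.

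C1orf116, an androgen-induced gene also known as SARG, had the steepest fall of the members called. It had 171 and 185 T>C reads in the control libraries, 64 and 17 with THZ531 and 11 and 18 with THZ531 and Endovion. As T>C RPM these were 110 and 148, 41.7 and 17.3 and 9.32 and 17.7, beside 67 and 97 with SRPIN340 and 82.9 and 49.1 with Endovion. No treated library reached a control library. Against control, C1orf116 fell by 2.07 on the log2 scale with THZ531 (log2 -2.07 ± 0.33, adjusted p = 1.4e-05) and by 3.27 with both compounds (log2 -3.27 ± 0.37, adjusted p = 9.7e-09). With both it was lower than with Endovion alone (log2 -2.31 ± 0.39, adjusted p = 2.3e-04), which was lost without Endovion replicate 1 or THZ531 and Endovion replicate 1 (adjusted p = 0.085 and 0.096). Against THZ531 alone the difference was -1.20 ± 0.41 (adjusted p = 0.31), and the fall beyond the sum of the compounds' own effects was -0.25 ± 0.51 on the log2 scale (adjusted p = 0.96). Endovion and SRPIN340 alone gave -0.95 ± 0.30 (adjusted p = 0.081) and -0.65 ± 0.30 (adjusted p = 0.41).

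APPBP2, which binds the amyloid precursor protein and serves as a substrate receptor of a ubiquitin ligase, was lower with THZ531 at 17.6 and 8.13 T>C RPM against 46.3 and 47.3 in control (log2 -1.79 ± 0.40, adjusted p = 0.0017). Leaving out THZ531 replicate 2 ended this call (adjusted p = 0.098). With THZ531 and Endovion it was at 25.4 and 32.5, a log2 fold change of -0.70 ± 0.37 (adjusted p = 0.27). The Endovion libraries, at 46 and 84.7, overlapped the control, and those of SRPIN340, at 63.6 and 48.2, lay just above it. Neither was called.

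TSC22D1, a leucine-zipper factor of the TGF-β response, had 241 and 214 T>C RPM in control and 158 and 136 with THZ531 and Endovion (log2 -0.63 ± 0.19, adjusted p = 0.029). This call was lost without either control library or either library of the 2 compounds (adjusted p of up to 0.22), and when the compared groups were fitted alone. NCAPD3, a subunit of the condensin II complex of mitotic chromosomes, was the member called higher, at 12.2 and 6.42 in control and 28 and 30.5 with both compounds (log2 1.61 ± 0.52, adjusted p = 0.042), on 19 and 8 and 33 and 31 T>C reads. It was not called by DESeq2, and was lost without control replicate 2 or without either library of Endovion or of the 2 compounds (adjusted p of up to 0.28). Summing all overlapping intervals of a gene in place of 1 per overlap ended every nascent call against control named above except those of C1orf116, PMEPA1 and SLC45A3 with THZ531 and Endovion.

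The kallikreins are secreted serine proteases whose genes lie side by side on chromosome 19, with the first annotated base of KLK2 0.803 kb beyond KLK3 in GENCODE, upstream of the RefSeq start whose window is printed above. Nascent KLK3 was too sparse to test, with 12 and 3 T>C reads in control, 2 and 2 with SRPIN340, 1 and 1 with Endovion, 5 and 1 with THZ531 and 1 and 0 with both. KLK2 had 9 and 14 T>C reads in control and 34 and 2 with THZ531, so that the THZ531 libraries lay on both sides of the control (log2 fold change between -0.08 and 0.60, none called). KLK4 had 27 and 59 T>C reads in control and 10 and 10 with THZ531, which were 17.4 and 47.3 RPM against 6.51 and 10.2 RPM. The 2 control libraries thus differed from each other more than the lower one did from THZ531. The log2 fold change was -1.97 ± 0.56 (SE), adjusted p = 0.019, with THZ531, and the call was lost without control replicate 2 or either THZ531 library (adjusted p of up to 0.44). KLK2 and KLK3 are close paralogs, and reads could be split between them.

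Total RNA carried more reads of these genes and let all 48 members be tested, among 14690 genes. SRPIN340 lowered 1 member (2.08%, against 0.143% of all genes) and raised 0 (against 1.82%). At an unadjusted p under 0.05, 6 members were higher and 9 lower with SRPIN340, and 19.3% of all genes had such a p in either direction. Endovion lowered 9 (18.8%, against 2.53%) and raised 3 (6.25%, against 8.90%). THZ531 lowered 8 (16.7%, against 14.1%) and raised 18 (37.5%, against 16.6%). THZ531 with Endovion lowered 11 (22.9%, against 12.4%) and raised 12 of 48 (against 16.6%). The median log2 fold change of the members was 0.02, -0.08, 0.16 and -0.02, and that of all genes 0.03, 0.02, -0.01 and 0.00. Without control replicate 2 the members called were 0 with SRPIN340, 2 with Endovion, 10 with THZ531 and 11 with both. Endovion had 4 called without its replicate 1 and 1 without its replicate 2, THZ531 had 11 without its replicate 2, and the pair of compounds had 12 without its replicate 1. For SRPIN340 the count was 0 without SRPIN340 replicate 2 or either Endovion library, and rose to 5 without control replicate 1 or THZ531 replicate 1, to 4 without THZ531 replicate 2 and to 2 without THZ531 and Endovion replicate 1. DESeq2 called 6 members with SRPIN340.

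**Figure D2:**
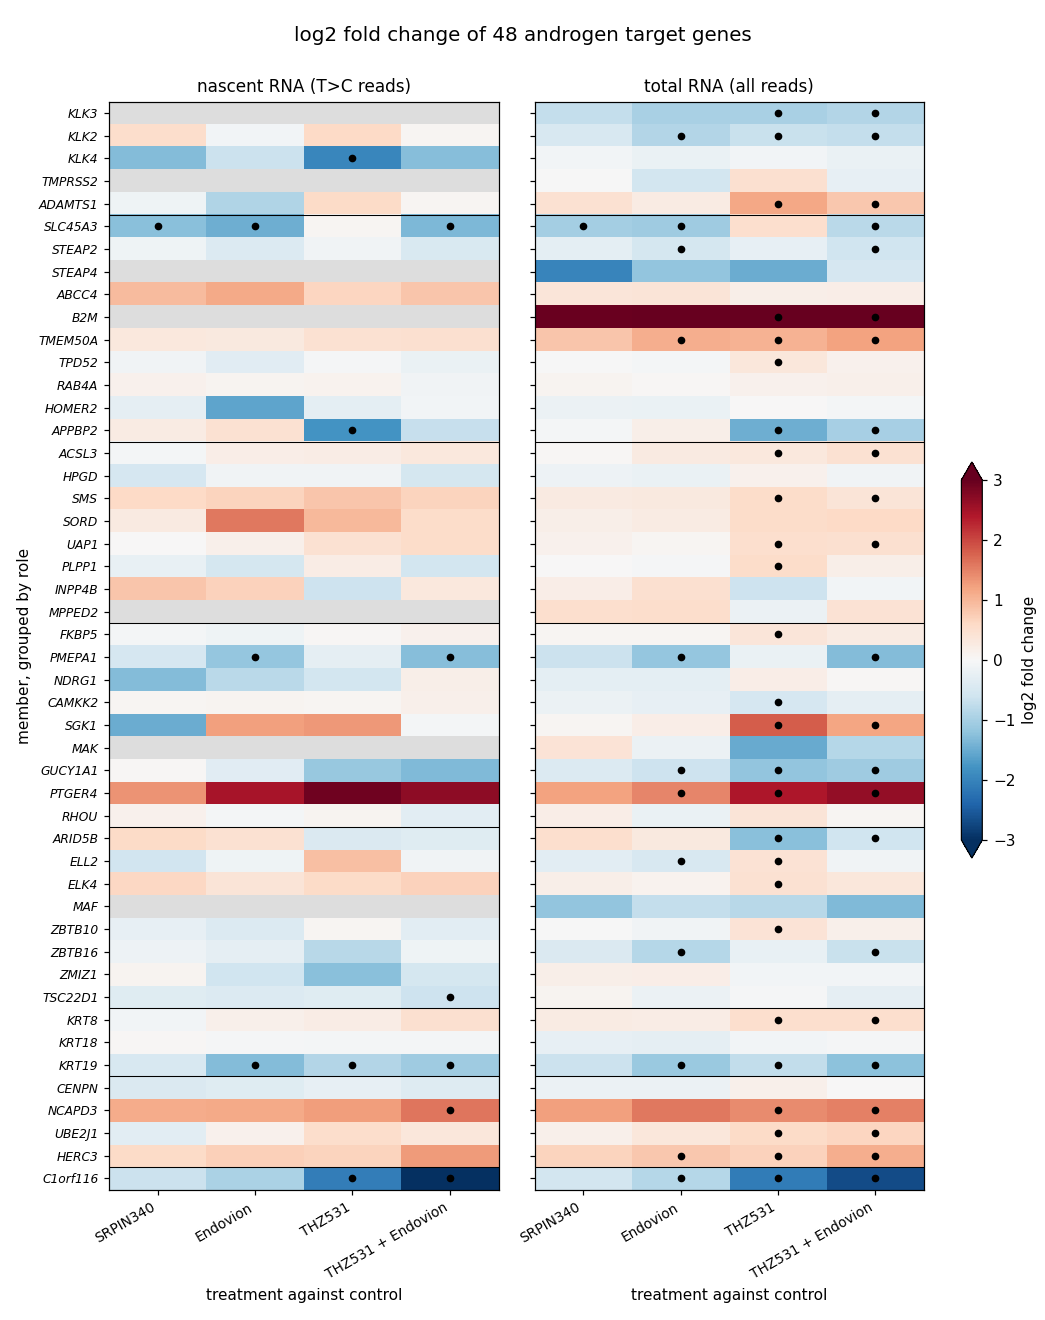
log2 fold change (color, from -3 blue to 3 red) of the 48 members (rows, grouped by role with lines between groups) in nascent RNA (left) and total RNA (right), for 4 treatments against control (columns), where a black dot marks an adjusted p under 0.05 and gray a member not tested. C1orf116 was lowest of the called members in both panels with THZ531 and Endovion (-3.27 and -2.69), and B2M in total RNA lies at or beyond the red end on very few reads.

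In total RNA KLK3 was 8.09 and 7.53 RPM in control, 5.31 and 4.22 with SRPIN340, 4.17 and 3.76 with Endovion, 5.16 and 2.63 with THZ531 and 5.13 and 3.35 with both compounds. Every treated library lay below both control libraries. The log2 fold change was -0.98 ± 0.31 (SE), adjusted p = 0.024, with THZ531 and -0.87 ± 0.31 (SE), adjusted p = 0.043, with both compounds, and -0.98 ± 0.31 (adjusted p = 0.051) with Endovion and -0.71 ± 0.30 (adjusted p = 0.21) with SRPIN340 were not called. KLK2 fell with Endovion (-0.88 ± 0.25, adjusted p = 0.033), THZ531 (-0.68 ± 0.24, adjusted p = 0.047) and both (-0.72 ± 0.25, adjusted p = 0.039), and its treated libraries, at 9.10 to 15.8 RPM, were again below the control at 19.9 and 20.5. KLK4 was called in none of the 4, between -0.20 and -0.07. TMPRSS2, a membrane protease whose androgen-driven promoter is often fused to ERG in prostate cancer, had 21 to 52 reads a library and was called in none.

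ADAMTS1, a secreted metalloprotease, rose in total RNA with THZ531, from 15.6 and 10.3 RPM in control to 23.6 and 35 (log2 1.17 ± 0.23, adjusted p = 0.0016), and with both compounds (0.82 ± 0.23, adjusted p = 0.014). With it, 3 of the 5 proteases were called with THZ531 in total RNA. Lower were 2 of them (against 14.1% of all genes), and 1 was higher (against 16.6%). In nascent RNA ADAMTS1 had 0.58 ± 0.47 with THZ531 (adjusted p = 0.53).

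**Figure D3:**
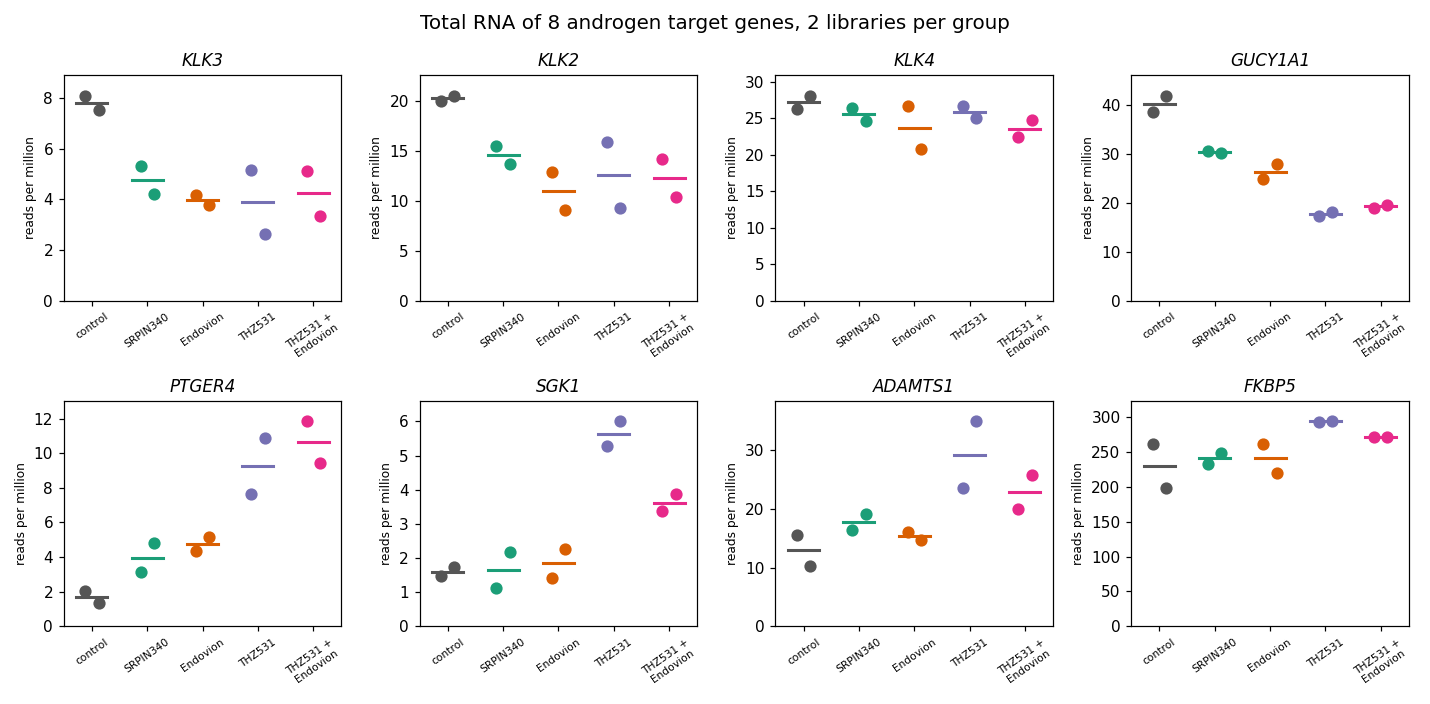
RPM (vertical axis, from 0) in total RNA of 8 members, by group (horizontal axis), where each point is a library and each line the mean of 2 libraries. KLK3, KLK2 and GUCY1A1 lie below the control in all treated libraries, and PTGER4 lies above it in all of them.

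Of the 10 membrane and trafficking genes, 3 rose and 1 fell in total RNA with THZ531, and 1 rose and 2 fell with Endovion. Of all genes 16.6% rose and 14.1% fell with THZ531, and 8.90% rose and 2.53% fell with Endovion. SLC45A3 followed its nascent RNA, at 103 and 89.3 RPM in control, 49.1 and 46.1 with SRPIN340, 51.8 and 40.2 with Endovion, 153 and 120 with THZ531 and 42.5 and 68.2 with both. It fell with SRPIN340 (-1.02 ± 0.21, adjusted p = 0.041), Endovion (-1.06 ± 0.21, adjusted p = 0.011) and both compounds (-0.80 ± 0.21, adjusted p = 0.016), and THZ531 gave 0.51 ± 0.21 (adjusted p = 0.089). STEAP2, a metalloreductase of the prostate plasma membrane, fell with Endovion (-0.53 ± 0.11, adjusted p = 0.0083) and both compounds (-0.60 ± 0.11, adjusted p = 0.0011), and its nascent values of -0.41 ± 0.19 (adjusted p = 0.3) and -0.45 ± 0.19 (adjusted p = 0.13) lay on the same side without passing the test. STEAP4, of the same family, had 3 to 19 reads a library. TMEM50A rose with Endovion, THZ531 and both, by 1.09 ± 0.22, 1.05 ± 0.22 and 1.21 ± 0.22 on the log2 scale, though its control libraries, at 52.9 and 28.6, differed widely from each other. APPBP2 fell with THZ531 (-1.47 ± 0.13, adjusted p = 4.5e-06), and was also called lower with both compounds.

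TPD52, a vesicle protein that is amplified in prostate cancer, rose with THZ531 (0.34 ± 0.11, adjusted p = 0.035). B2M, the light chain of MHC class I, was called higher with THZ531 and with both compounds, but its counted interval held only 285 reads in all 10 libraries, 6 and 0 of them in control, too few to give its level. ABCC4, RAB4A, HOMER2 and STEAP4 were called in none of the 4 comparisons.

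The signalling genes split. PMEPA1 fell with Endovion (-1.16 ± 0.19, adjusted p = 0.0061) and both compounds (-1.30 ± 0.20, adjusted p = 9.3e-04), at 576 and 502 RPM in control, 259 and 223 with Endovion and 184 and 253 with both. GUCY1A1, a subunit of the nitric oxide receptor guanylate cyclase, was 38.5 and 41.8 in control, 30.5 and 30.2 with SRPIN340, 24.8 and 27.8 with Endovion, 17.3 and 18 with THZ531 and 18.9 and 19.5 with both. It fell with Endovion (-0.61 ± 0.14, adjusted p = 0.012), THZ531 (-1.18 ± 0.14, adjusted p = 3.3e-05) and both (-1.06 ± 0.14, adjusted p = 9.9e-05). CAMKK2, a kinase upstream of AMPK and an androgen target in prostate cancer metabolism, fell with THZ531 (-0.51 ± 0.12, adjusted p = 0.0052).

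PTGER4, the EP4 receptor of prostaglandin E2, moved the other way. It had 2.03 and 1.35 RPM in control, 3.1 and 4.8 with SRPIN340, 4.36 and 5.14 with Endovion, 7.63 and 10.9 with THZ531 and 11.8 and 9.42 with both compounds. It rose with Endovion (1.48 ± 0.31, adjusted p = 0.0088), THZ531 (2.43 ± 0.31, adjusted p = 5.6e-05) and both (2.64 ± 0.31, adjusted p = 4.2e-05), in each of these comparisons the highest log2 value of the members called in total RNA apart from B2M. SGK1, a kinase induced by glucocorticoids as well as androgen, rose with THZ531 from 1.46 and 1.72 to 5.27 and 6.01 RPM (1.82 ± 0.36, adjusted p = 0.0015) and with both compounds (1.18 ± 0.36, adjusted p = 0.022). T>C reads were few, at most 15 for PTGER4 and 10 for SGK1 in a library, above the low-count limit in 3 and 2 libraries, and gave no call.

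FKBP5, an HSP90 co-chaperone and one of the most used readouts of androgen and glucocorticoid activity, was not called in nascent RNA. It had 186 and 164 T>C RPM in control, 172 and 165 with SRPIN340, 179 and 142 with Endovion, 187 and 175 with THZ531 and 206 and 180 with both, and its groups overlapped. The log2 fold change lay between -0.12 ± 0.19 with Endovion and 0.14 ± 0.19 with both compounds, adjusted p = 0.84 and 0.74. In total RNA it rose slightly with THZ531 (0.35 ± 0.13, adjusted p = 0.045). NDRG1, a stress-responsive growth regulator, had 4 to 21 T>C reads a library and was called in neither measure. MAK and RHOU were called in neither.

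Of the 8 metabolism genes, 4 rose and 0 fell in total RNA with THZ531, and 3 rose with both compounds. Of all genes 16.6% rose and 14.1% fell with THZ531, and 16.6% rose with both. ACSL3, which activates fatty acids, rose with THZ531 (0.31 ± 0.10, adjusted p = 0.03) and both (0.45 ± 0.10, adjusted p = 0.0039). SMS, spermine synthase, rose by 0.55 ± 0.14 and 0.38 ± 0.14, and UAP1, which makes UDP-N-acetylglucosamine, by 0.50 ± 0.14 and 0.47 ± 0.14. PLPP1, a lipid phosphate phosphatase, rose with THZ531 alone against control (0.56 ± 0.16, adjusted p = 0.013), and with both it was 0.17 ± 0.16 (adjusted p = 0.44). HPGD, SORD, INPP4B and MPPED2 were called in neither measure.

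Of the 8 transcription genes, 3 rose and 1 fell in total RNA with THZ531, 2 fell with Endovion and 2 fell with both compounds. Of all genes 16.6% rose and 14.1% fell with THZ531, 2.53% fell with Endovion and 12.4% fell with both. ARID5B, a chromatin regulator, fell with THZ531 (-1.24 ± 0.19, adjusted p = 3.0e-04) and both (-0.59 ± 0.19, adjusted p = 0.028). ELL2, a subunit of the super elongation complex, rose with THZ531 (0.44 ± 0.15, adjusted p = 0.03) and fell with Endovion (-0.49 ± 0.15, adjusted p = 0.042), and ELK4 and ZBTB10 rose with THZ531 by 0.46 ± 0.15 and 0.41 ± 0.11. ZBTB16, known as PLZF, fell with Endovion (-0.86 ± 0.21, adjusted p = 0.023) and both (-0.67 ± 0.21, adjusted p = 0.032), on an interval with only 8 T positions that can show a conversion. MAF, ZMIZ1 and TSC22D1 were not called in total RNA.

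KRT19 fell in total RNA with Endovion (-1.12 ± 0.16, adjusted p = 0.0024), THZ531 (-0.73 ± 0.16, adjusted p = 0.0036) and both (-1.22 ± 0.16, adjusted p = 1.5e-04), while KRT8 rose with THZ531 (0.50 ± 0.13, adjusted p = 0.011) and both (0.49 ± 0.13, adjusted p = 0.011) and KRT18 was not called. Against 16.6% of all genes in each comparison, 3 of 4 genes of the chromosome and ubiquitin group rose with THZ531 and with both compounds. These were NCAPD3 (1.42 ± 0.42, adjusted p = 0.042, and 1.51 ± 0.42, adjusted p = 0.035), UBE2J1, a ubiquitin-conjugating enzyme of endoplasmic reticulum quality control (0.58 ± 0.13, adjusted p = 0.0041, and 0.64 ± 0.13, adjusted p = 0.0024), and HERC3, a ubiquitin ligase (0.70 ± 0.25, adjusted p = 0.042, and 1.08 ± 0.25, adjusted p = 0.0043). CENPN, a centromere protein, was not called. C1orf116 fell in total RNA with Endovion (-0.85 ± 0.21, adjusted p = 0.026), THZ531 (-2.09 ± 0.22, adjusted p = 6.0e-05) and both (-2.69 ± 0.23, adjusted p = 2.4e-05).

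In all, 30 of the 48 members were called in total RNA in at least 1 comparison with control (62.5%, against 39.9% of all genes tested), 8 of 41 in nascent RNA (19.5%, against 11.8%), 6 in both and 16 in neither. Nascent and total RNA rest on some of the same reads, since T>C reads are part of all reads. Where a member was called in total RNA and had a nascent value, the nascent log2 fold change had the same sign for 12 of 12 members with Endovion, 21 of 24 with THZ531 and 19 of 21 with both compounds. Across the 41 members Pearson's r between the 2 log2 fold changes was 0.66 with SRPIN340, 0.74 with Endovion, 0.82 with THZ531 and 0.88 with both, a description across genes that share libraries and reads. KLK4 with THZ531 was the nascent call farthest from its total RNA, -1.97 ± 0.56 against -0.07 ± 0.15.

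**Figure D4:**
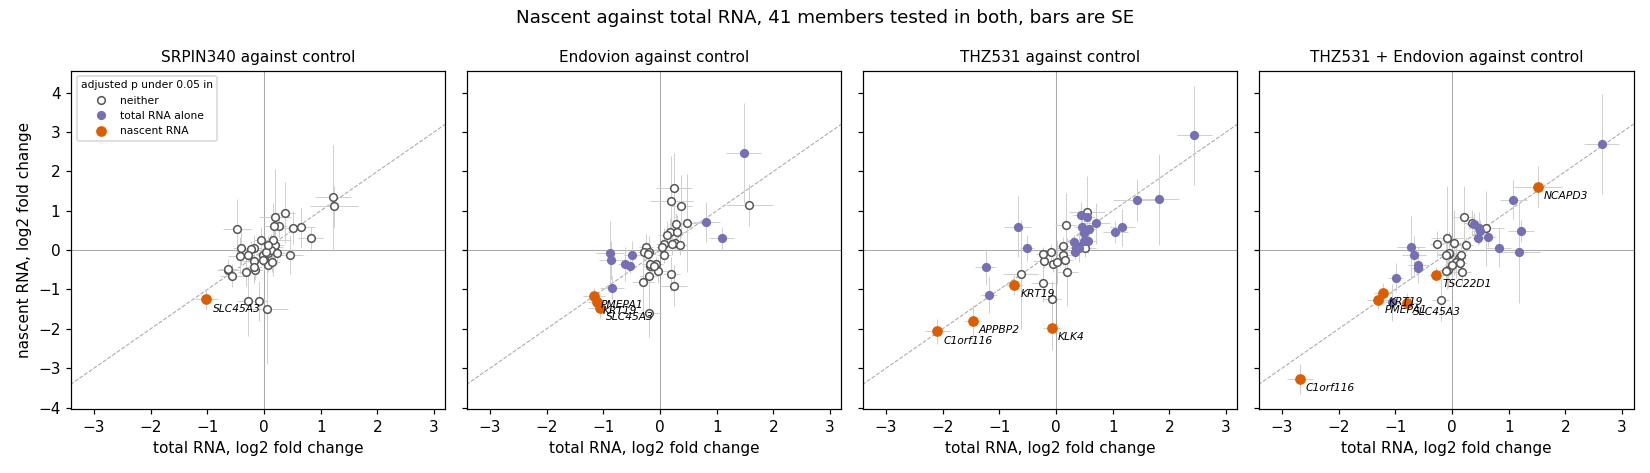
log2 fold change in nascent RNA (vertical axis) against that in total RNA (horizontal axis) for the 41 members tested in both, in 4 panels by treatment, where bars are the SE of each estimate and the dashed line marks equal change. Points run from the lower left to the upper right (r of 0.66 to 0.88), and KLK4 with THZ531 stands at -1.97 in nascent and -0.07 in total RNA.

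The labelled share is the part of a gene's reads with a conversion, and depends on how much of its RNA is new and on how many T positions its reads cover. In control cells it ran from 1.96% for KRT18 to 17.1% for HERC3 over the 41 members tested in nascent RNA, with a median of 4.49%, against 5.19% over all genes tested. TSC22D1 was at 17 and 15.3% in the 2 control libraries and HERC3 at 16.8 and 17.5%. SLC45A3 had 9.7 and 8.53%, TPD52 8.35 and 10.4% and C1orf116 6.9 and 7.73%, while KRT19 had 2.64 and 2.37% and PMEPA1 2.77 and 3.32%. KRT18, KLK2, ABCC4 and KRT19 were the lowest, and the order of neighbours closer than the replicate spread is not resolved. Per T position covered the order was another one. Conversions per 1000 T in control were highest for INPP4B (9.22), ADAMTS1 (7.81) and SORD (7.18), with HERC3 at 6.28 and TSC22D1 at 6.79, and lowest for ABCC4 (0.666) and UAP1 (0.985), with KRT18 at 1.97. INPP4B and SORD had only 50 and 89 T>C reads in all libraries. No unlabelled library was analysed here, so the share that sequencing errors or differences from the reference add is not known.

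**Figure D5:**
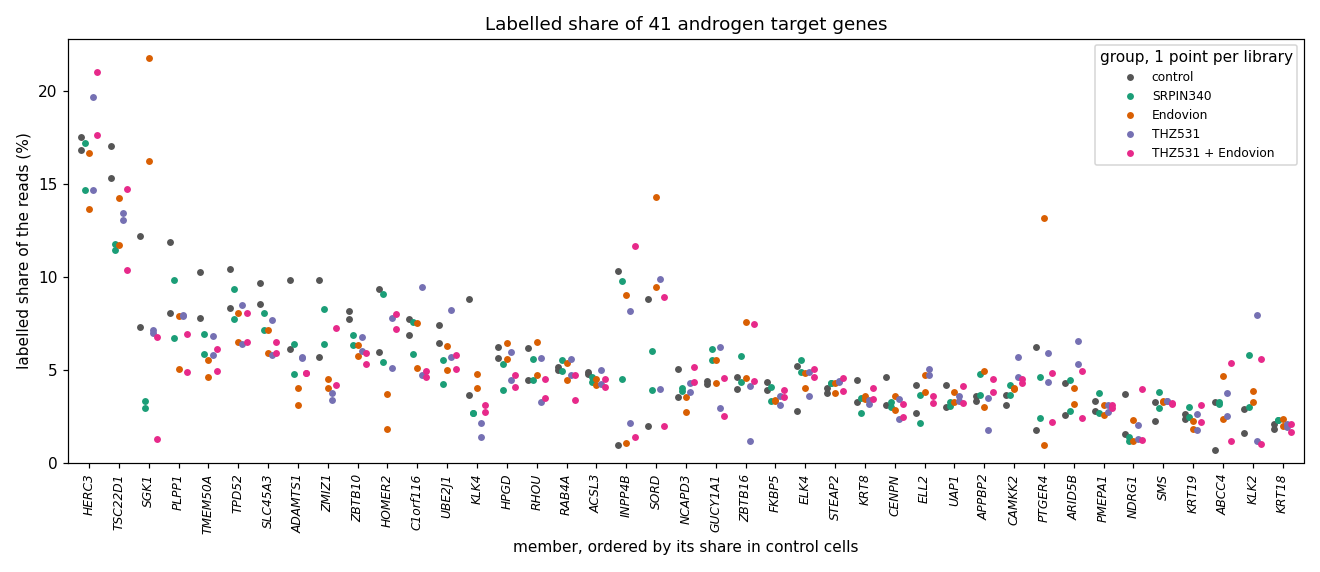
Share of reads with a T>C conversion in percent (vertical axis, from 0) for the 41 members tested in nascent RNA, ordered by their share in control (horizontal axis) without correction for T content, where each point is a library and colors mark the 5 groups. HERC3 and TSC22D1 stand highest in control (17.1% and 16.3%) and KRT18 lowest (1.96%), and members with few reads such as SGK1, INPP4B and SORD scatter widely.

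No member's labelled share was called as changed relative to its library, with 0 of 41 members in each comparison by edgeR's test of the interaction of treatment with read class. Of all genes 0.181% were called with SRPIN340, 0.292% with Endovion, 0.312% with THZ531 and 1.05% with both compounds. At an unadjusted p under 0.05 the members numbered 4, 3, 6 and 2 of 41, against 8.57%, 9.60%, 10.2% and 12.4% of all genes. The members with the smallest p were KLK4 with THZ531 (log2 -1.76, adjusted p = 0.17) and ZBTB10 with both compounds (log2 -0.34, adjusted p = 0.083). SLC45A3, with 7.16% and 8.06% labelled under SRPIN340 and 5.91 and 7.14% under Endovion, was below its control share in all treated libraries, but its share was not called in any comparison. DESeq2 was not run on the share.

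Between treatments, THZ531 with Endovion differed from THZ531 alone in 2 of 41 members (4.88%, against 0.322% of all genes), SLC45A3 and PMEPA1, both lower. Against Endovion alone it differed in 1 member (2.44%, against 1.31%), C1orf116. Endovion against SRPIN340 gave 0 members by edgeR (against 0.0603% of all genes) and by DESeq2. At an unadjusted p under 0.05 there were 4 (against 3.90% of all genes), PMEPA1, KRT19, HOMER2 and SGK1. The interaction of THZ531 with Endovion, the departure from additive log2 effects, gave 0 members by edgeR (against 0.302%) and by DESeq2. Against 7.70% of all genes, 4 members had an unadjusted p under 0.05. The lowest of these was KRT19 (1.12 ± 0.37, adjusted p = 0.25), whose fall with both compounds was smaller than the sum of the falls with each.

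Beyond the members, a list of 23 regulators of the androgen response was followed, all tested in nascent RNA. With THZ531 3 of them rose, and with both compounds 2 rose and 1 fell. Of all genes tested 3.86% rose with THZ531, and 4.61% rose and 3.49% fell with both. HOXB13, a homeobox factor of the prostate, fell with both compounds (-1.54 ± 0.38, adjusted p = 0.005), and in total RNA HOXB13 fell with Endovion (-0.55 ± 0.14, adjusted p = 0.02), THZ531 (-0.94 ± 0.14, adjusted p = 1.9e-04) and both (-1.25 ± 0.14, adjusted p = 3.3e-05). FOXA1, a pioneer factor that opens chromatin, rose with THZ531 (0.91 ± 0.23, adjusted p = 0.0083) and stood at 0.03 ± 0.24 (adjusted p = 0.96) with both. NCOA4, a coactivator and ferritin receptor, rose with THZ531 (0.78 ± 0.24, adjusted p = 0.03) and both (0.79 ± 0.24, adjusted p = 0.027), and KDM1A, the demethylase LSD1, by 2.17 ± 0.68 and 2.16 ± 0.69 on 4 to 27 T>C reads a library.

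A further list of 55 androgen-induced genes outside the members had 48 tested in nascent RNA. With SRPIN340 1 was higher and 0 lower, with Endovion 2 and 3, with THZ531 4 and 1 and with both compounds 4 and 3. Of all genes tested 0.845% were higher and 0.191% lower with SRPIN340, and 2.04% and 0.623% with Endovion. The shares were 3.86% and 3.60% with THZ531 and 4.61% and 3.49% with both. GSR, glutathione reductase, was called higher with SRPIN340 (0.68 ± 0.18, adjusted p = 0.035), THZ531 (0.77 ± 0.18, adjusted p = 0.0029) and both (0.87 ± 0.18, adjusted p = 6.4e-04), and the kinase AKT1 was called higher in the 3 comparisons other than SRPIN340. HMGCS1, of cholesterol synthesis, fell with Endovion (-0.67 ± 0.18, adjusted p = 0.02) and both (-0.61 ± 0.18, adjusted p = 0.019), SPCS3, of the signal peptidase, with Endovion (-0.74 ± 0.19, adjusted p = 0.015), and SLC26A2, a sulfate transporter, with both (-0.98 ± 0.21, adjusted p = 8.4e-04). Median log2 fold changes of this list lay between -0.12 with Endovion and 0.12 with THZ531. Of 6 genes that androgen represses, 2 were tested, and PEG10 rose with THZ531 (0.65 ± 0.18, adjusted p = 0.012).

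The members were somewhat larger than other genes, with a median genomic span of 57.4 kb against 29.5 kb over the 14690 genes tested in total RNA, and 9 exons against 8. Their spans ran from 4.04 kb (KRT18) to 824 kb (INPP4B). In total RNA with THZ531, 3 rose and 4 fell of the 11 members under 20 kb, 10 rose and 3 fell of the 24 between 20 and 100 kb, and 5 rose and 1 fell of the 13 over 100 kb. Among all genes of these spans 11.6%, 20.6% and 18.6% rose, and 15.9%, 14.3% and 10% fell. Of the members called lower in nascent RNA with THZ531, C1orf116 (14.2 kb), KRT19 (4.69 kb) and KLK4 (5.05 kb) span under 20 kb and APPBP2 83.1 kb. These were 3 of the 8 members tested under 20 kb and 1 of 21 between 20 and 100 kb. Over 100 kb it was 0 of 12. Among all genes of these spans 3.94%, 3.68% and 2.79% were called lower. Of the 48 members 7 lie on chromosome 1, 4 each on chromosomes 4 and 6, and 3 each on chromosomes 5, 8, 11, 12, 15 and 19.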

How the data were processed

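The authors made QuantSeq 3′ libraries of alkylated RNA and ran SLAM-DUNK, and deposited for each library, per 3′ UTR interval, unnormalized counts of all reads, of reads with T>C conversions, of the conversions and of T coverage. Per the labels, the processing names Bowtie2 2.3.4.1, SAMtools 1.6, DESeq2 1.38.2 and hg38. The deposited conversion rate (a fraction) and read CPM (a score here) were not used as test values. The T content of all 69 intervals of the members equalled that of hg38. UMIs were built into the libraries, and whether counts were collapsed by them is not given in the sources used here. Intervals were matched by transcript to GENCODE v44, which gave 31015 genes from 92910 of 96427 intervals, and where intervals of the same gene overlapped, only that with the highest read number was used. Library totals on genes were 1011598 to 1576121 T>C reads.

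T>C reads (nascent) and all reads (total) per gene were fitted with edgeR 4.0.16 in R 4.3.3 (TMM, filterByExpr with a minimum count of 10, robust quasi-likelihood, group means, all 10 libraries, 5 residual degrees of freedom), and the labelled share by contrasting converted with unconverted reads between groups, each library being a block. RPM values were computed on TMM-scaled library sizes. A member was called at a Benjamini-Hochberg adjusted p under 0.05 over all genes tested. The procedure was run on simulated data. There the labelled share was drawn without extra spread between libraries, so that run cannot show how the share test performs on these data. DESeq2 1.42.0, other scalings, filters and interval sums, a replicate block and each library left out were alternatives. Replicates of a group differed by more than counting noise (chi-square per degree of freedom 3.54 to 4.90), so none was counted as a copy of another. The members, gene lists and alternatives were chosen with earlier results of these data known. Members described one by one are those called in nascent RNA plus KLK3, KLK2, KLK4, TMPRSS2, FKBP5, SLC45A3, PMEPA1, STEAP4, STEAP2 and NDRG1. Other members named for total RNA or the labelled share were chosen after their values were seen. Genes outside the members are at most 6 per list, from those called in nascent RNA. Results for some genes of these lists are not reported here. Promoter windows are from the RefSeq table of GRCh38.p14. The combination of SRPIN340 with THZ531 was not analysed here.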

Additional observations from a re-analysis of the deposited data

How the results depend on the processing

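Of 152 member counts recomputed under other settings, without counting single libraries left out, 128 were within 1.5 times the main count, and of 306 recomputed gene calls 261 were kept, 45 were lost and 0 changed direction. The cause of a change was not tested. At the methods' threshold (no adjustment of p, and a log2 size of 1 or more), nascent members higher were 1 with SRPIN340, 1 with Endovion, 2 with THZ531 and 3 with THZ531 and Endovion, 2 were lower with SRPIN340, and members called were 5 for both compounds against THZ531, 3 against Endovion, 2 for Endovion against SRPIN340 and 3 for the interaction. With the plain sum of overlapping intervals, 0 were lower with SRPIN340, Endovion or THZ531, 3 were lower and 0 higher with both compounds, 0 were called for both against THZ531 or Endovion, and 0 in total RNA with SRPIN340. DESeq2 gave 0 higher with both compounds, as did fitting the compared groups alone, and 6 in total RNA with SRPIN340. In total RNA with SRPIN340 the count was 8 without the low-count filter, and the replicate block gave 0. The labelled share with both compounds had 1 member called with 1 library size for both read classes, and 1 without the filter.

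Leaving out 1 library at a time gave these ranges of nascent members. They were 0 to 1 lower with SRPIN340, 2 to 3 lower with Endovion, 1 to 4 lower and 0 to 2 higher with THZ531, and 3 to 5 lower and 0 to 2 higher with both compounds. The direct comparisons gave 0 to 2 for both against THZ531 and 0 to 1 against Endovion. For the share the range was 0 to 1 with THZ531 and with both compounds. In total RNA it was 0 to 5 with SRPIN340, 1 to 14 with Endovion, 10 to 26 with THZ531 and 11 to 22 with both. The 2 higher with THZ531 and with both compounds came without control replicate 1. Without control replicate 2, nascent members lower were 2 with THZ531 and 3 with both, and without THZ531 replicate 2 there was 1 with THZ531. A lone library of a group was taken to vary like the other groups. Replicate numbers did not pair the samples: deviations of equal numbers correlated between -0.071 and 0.062 across groups. With the replicate block the nascent calls numbered 3 lower with Endovion, 4 lower with THZ531 and 5 lower with both, as in the fit without the block. Depth limits nascent RNA most, where 7 members had too few T>C reads to test.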
